A study of Mus musculus with 8 samples.

Results

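The insulin-like growth factor (IGF) binding protein genes were described in liver macrophage preparations of C57BL/6 mice, a common inbred strain, fed 1 of 2 diets, a normal diet in 4 libraries (ND) and a western diet in the other 4 (WD). The question was how genes of this family differ with diet. Members were the genes of the authors' deposited table whose symbol begins with Igfbp, together with Igf1, Igf2, Igf1r and Igf2r where present. This gave 4 of the 2386 listed genes: Igfbp4, Igfbp7, Igfbp3 and Igfbp1. Neither the age of the mice nor the composition and duration of the diets is given in the sources used here, nor is the way the macrophages were isolated. The table sets a group written WDV against one written NDV, which are read here as the WD and the ND libraries, although the V is not explained.

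The table holds 1 fold change per gene and no value for any single library, so the errors below are the authors' standard errors (SE) and the depth per library is unknown. Listed genes had a p-value below 0.05 and a log2 fold change beyond 1 in size, so the members had been selected by this same contrast. Their fold changes and p-values are therefore a description. The member nearest to the limit on size was Igfbp3, at -1.25 in the authors' deposited table, and the one nearest to the limit on p was Igfbp1, at 0.0324. Values just outside these limits are not in the table. Of the 12 genes of the family in the GENCODE M21 annotation, 8 were not listed: Igfbp2, Igfbp5, Igfbp6, Igfbpl1, Igf1, Igf2, Igf1r and Igf2r. Absence from the table does not say whether a gene failed on p, failed on size or went unmeasured.

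IGF1 and IGF2 are secreted growth factors that act through the receptor tyrosine kinase IGF1R, while IGF2R mainly clears IGF2. In blood and tissue most IGF is held by binding proteins, which prolong its life, keep it from the receptor or release it when a protease cuts them. In liver, hepatocytes are the main source of circulating IGF1 and of IGFBP1, and cells of the sinusoids make several of the other binding proteins.

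The stretches before the start sites of the 4 members are shown because the members had fold changes of both signs and very different levels, and because 2 of them, Igfbp1 and Igfbp3, lie side by side. Each is the 250 bases before the gene's start in RefSeq (GRCm38.p6), read 5′ to 3′ in the direction of the gene. They lie at chr11:99040994-99041243 (plus strand) for Igfbp4, chr5:77408046-77408295 (minus strand) for Igfbp7, chr11:7213924-7214173 (minus strand) for Igfbp3 and chr11:7197537-7197786 (plus strand) for Igfbp1. Capitals mark every match to the 7 short motifs searched on both strands.
Igfbp4: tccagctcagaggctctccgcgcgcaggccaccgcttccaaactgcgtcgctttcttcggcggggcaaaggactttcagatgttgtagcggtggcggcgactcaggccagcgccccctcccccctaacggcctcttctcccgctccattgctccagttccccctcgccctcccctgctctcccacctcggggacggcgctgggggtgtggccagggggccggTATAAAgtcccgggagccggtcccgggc
Igfbp7: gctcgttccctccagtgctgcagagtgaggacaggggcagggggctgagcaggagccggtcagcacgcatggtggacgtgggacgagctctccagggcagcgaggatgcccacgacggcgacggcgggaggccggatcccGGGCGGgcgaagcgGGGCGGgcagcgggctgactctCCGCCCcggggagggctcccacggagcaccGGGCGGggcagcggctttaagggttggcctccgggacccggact
Igfbp3: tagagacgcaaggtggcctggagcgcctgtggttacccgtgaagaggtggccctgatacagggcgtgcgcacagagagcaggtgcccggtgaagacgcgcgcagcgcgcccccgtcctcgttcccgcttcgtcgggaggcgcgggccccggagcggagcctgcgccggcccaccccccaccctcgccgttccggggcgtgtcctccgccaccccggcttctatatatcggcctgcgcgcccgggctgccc
Igfbp1: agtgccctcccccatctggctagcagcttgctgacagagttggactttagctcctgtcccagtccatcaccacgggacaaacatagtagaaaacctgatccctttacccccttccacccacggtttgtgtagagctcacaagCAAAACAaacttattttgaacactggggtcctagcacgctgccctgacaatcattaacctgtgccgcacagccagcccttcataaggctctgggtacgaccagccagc

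The motifs were the TATA box TATAAA, the CCAAT box CCAAT, the GC box GGGCGG, the core CAAAACA of insulin response elements, the forkhead core GTAAACA, the E-box CACGTG and the ETS core CGGAAG. No marked match overlapped another. The Igfbp4 window held 1 TATA box, whose first base lay 28 bases before the start, a motif present in 12.4% of 32851 RefSeq windows of this length. The Igfbp7 window held 4 GC boxes between 110 and 39 bases before the start, 3 on the strand of the gene and 1 on the other, and 32.7% of all windows held at least 1. The Igfbp1 window held the insulin response core at 108 to 102 bases before the start, against 5.56% of all windows. The Igfbp3 window held none of the 7 motifs. The GC content was 69.2% for Igfbp4, 74.0% for Igfbp7 and 73.2% for Igfbp3 but 53.2% for Igfbp1, beside a median of 52.4% over all windows. The windows of Igfbp4, Igfbp7 and Igfbp3 held 22, 26 and 32 CpG dinucleotides, whereas Igfbp1 had 5 and the median window 6. Whether GC content goes with the direction of change among the listed genes was not tested. A motif match is a description of letters and not evidence of binding.

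Of the 4 members, the authors' deposited table places 3 (Igfbp4, Igfbp7 and Igfbp3) below ND with an adjusted p under 0.05 and none above it. The genes that received an adjusted p-value, here called tested, numbered 17531, as recovered from the adjusted p-values. Of these, 8.35% were listed and lower at this limit, 3.0% were listed and higher, and 11.4% were either. Since membership itself required a place in this table, the members' count is not read against these shares.

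Igfbp4 encodes a binding protein that restrains IGF action until the protease PAPP-A cuts it (ENSMUSG00000017493, chromosome 11, 99041244 to 99054392, plus strand, GRCm38). Its mean normalized count in the authors' deposited table was 2118 over all libraries. A mean and a fold change of 2 equal groups imply a mean for each group, and for Igfbp4 these implied means were 3644 in ND and 592 in WD. The gene was 6.16-fold lower in WD, with a 95% interval of 5.22 to 7.27 from the authors' SE (log2 fold change -2.62 ± 0.12). Its adjusted p in the authors' deposited table, 2.35e-98, was the smallest of all listed genes. The size of its fall was common, however, since Igfbp4 stood at place 536 when the 1680 lower genes were ordered by the size of their fold change. Its SE was small for its level among listed genes. Among 116 listed genes with mean counts within 2-fold of its own, the median SE was 0.20 in the authors' deposited table, and 16 of them had a smaller SE than Igfbp4. Of 892 genes with a log2 fold change below -2 in the authors' deposited table, 3 had an SE as small as that of Igfbp4 or smaller, itself included.

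Igfbp7 encodes a low-affinity IGF binder that is deposited around blood vessels (ENSMUSG00000036256, chromosome 5, 77349240 to 77408041, minus strand). It had the highest mean normalized count of the members in the authors' deposited table, at 3610, which was the rank of 23 among all listed genes. The implied means were 6432 in ND and 789 in WD. Igfbp7 was 8.15-fold lower in WD (95% interval 6.05 to 11.0, log2 fold change -3.03 ± 0.22, adjusted p 9.78e-41 in the authors' deposited table). Its fall was larger than that of Igfbp4, but their 95% intervals overlapped on the log2 scale, from -3.46 to -2.60 for Igfbp7 and from -2.86 to -2.38 for Igfbp4. The difference between them was not tested, because both come from the same libraries and their covariance is not in the table. For Igfbp7 the SE was ordinary for its level among listed genes, since 33 of 58 of similar mean count had a smaller one in the authors' deposited table.

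Igfbp3 encodes the main IGF carrier of blood serum (ENSMUSG00000020427, chromosome 11, 7206086 to 7213923, minus strand). Its mean normalized count in the authors' deposited table was 66.2, and the implied means were 93.1 in ND and 39.2 in WD. The gene was 2.37-fold lower in WD, with a 95% interval of 1.44 to 3.91 that reached below 2-fold (log2 fold change -1.25 ± 0.37, adjusted p 0.00373 in the authors' deposited table). Its fold change was smaller than those of Igfbp4 and Igfbp7, and its interval on the log2 scale, -1.97 to -0.53, did not meet either of theirs. This difference was not tested either.

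Igfbp1 encodes a binding protein of hepatocytes that insulin represses (ENSMUSG00000020429, chromosome 11, 7197782 to 7202546, plus strand). It was the single member with a positive fold change, and it did not pass the limit (adjusted p 0.0946 in the authors' deposited table). Its mean normalized count was 9.66 in the authors' deposited table, with implied means of 3.87 in ND and 15.5 in WD. The log2 fold change was 1.996 ± 0.933, which gives a 95% interval from 1.12-fold to 14.2-fold. In the authors' deposited table the SE of Igfbp1 was larger than that of 593 of 615 listed genes of similar mean count. The median SE of these listed genes was 0.57. Listing required a p-value below 0.05, so genes with an SE large for their fold change are missing from such sets. Values of single libraries, which would show whether all WD libraries were high, are not in the table.

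**Figure D1:**
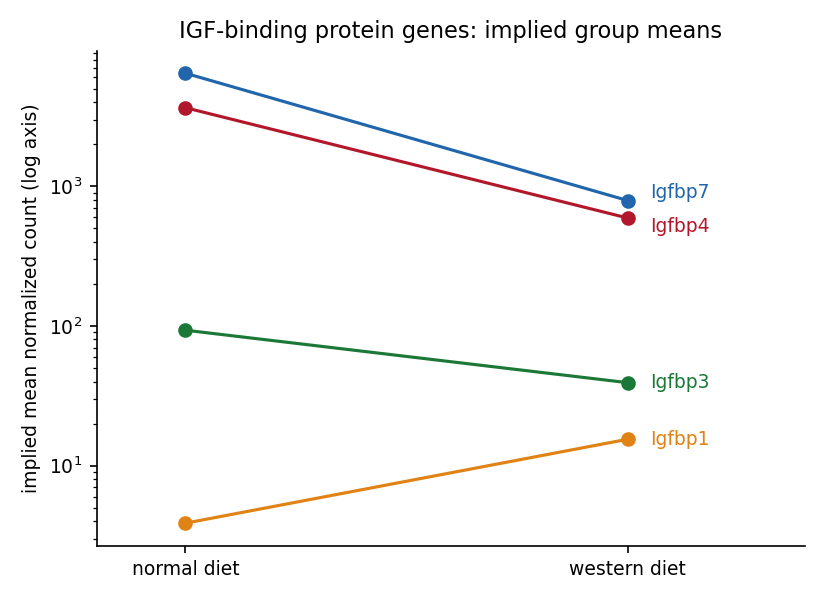
Implied mean normalized count (log axis) of each member under normal and western diet, computed from the authors' mean count and fold change; no error per group can be given. Igfbp7 and Igfbp4 drop from 6432 and 3644 to 789 and 592, Igfbp3 from 93.1 to 39.2, and Igfbp1 goes from 3.87 to 15.5 without passing the limit.

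Igfbp1 and Igfbp3 are neighbours whose ends face each other across 3539 bases, in an arrangement shared by many vertebrates. Their fold changes had opposite signs in the authors' deposited table, although that of Igfbp1 did not pass. In mouse, Igfbp2 and Igfbp5 form a like pair on chromosome 1, and neither was listed.

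Levels of different genes were compared per 1000 exonic bases, using the merged exons of GENCODE M21 (4416 bases for Igfbp4, 1209 for Igfbp7, 3130 for Igfbp3 and 1525 for Igfbp1). On this scale the implied ND level was 5320 for Igfbp7, 825 for Igfbp4, 29.8 for Igfbp3 and 2.54 for Igfbp1. The implied WD levels per 1000 bases were 652, 134, 12.5 and 10.1 in the same order. The order of the 4 genes was thus the same under both diets, with Igfbp3 and Igfbp1 close together under WD. Igfbp7 stood 6.45-fold above Igfbp4 per 1000 bases in ND and 4.87-fold above it in WD. Before division by length the implied ND means were 6432 and 3644, so these ratios rest largely on the exon lengths. Merged exons take in all annotated transcripts, and which of them were expressed is not known here. Whether neighbours in this order differ beyond the spread between libraries could not be assessed, since no spread per group is in the table.

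**Figure D2:**
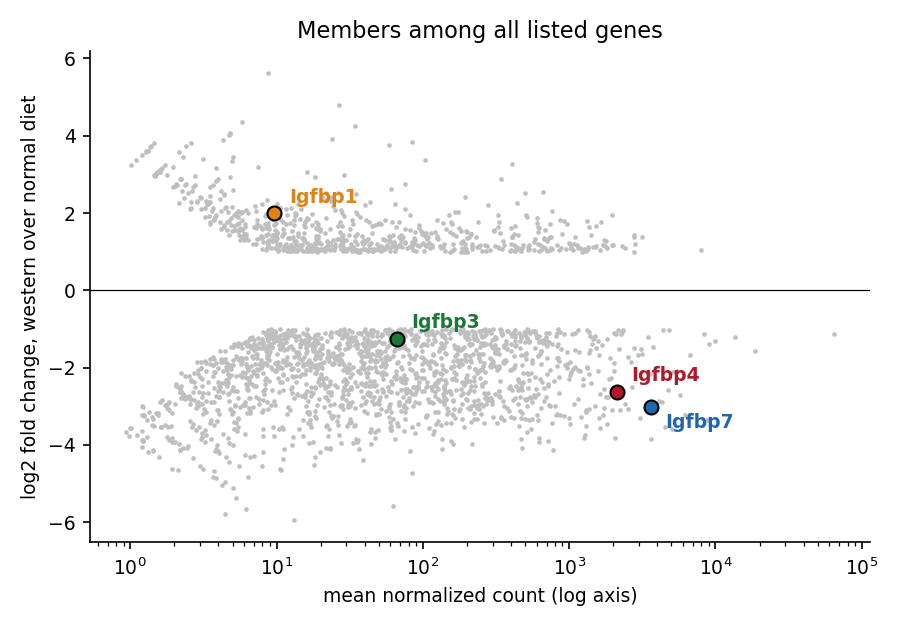
Log2 fold change (western over normal diet) against mean normalized count (log axis) for the 2386 listed genes in grey, with the members in colour. The empty band around 0 is the authors' limit on fold change; Igfbp4 and Igfbp7 lie among the most abundant lower genes, at mean counts of 2118 and 3610, and Igfbp1 lies at 9.66.

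The wider IGF axis was described with a list of 49 further genes. Of these, the authors' deposited table places 9 lower in WD with an adjusted p under 0.05, none higher, and 40 are not listed. The median log2 fold change of the 9 was -2.16, with a range from -3.12 to -1.15, beside a median of -2.08 over all 1680 listed lower genes. The 9 genes are 18.4% of the list, and 8.35% of tested genes were listed and lower. The list was chosen with earlier results of these data known, and nothing particular to it is drawn from these shares.

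Secreted or membrane proteins that carry an IGFBP-type domain made up 4 of the 9, out of 12 such genes. Wisp1, a matricellular protein gene also called Ccn4, stood at log2 -3.12 ± 0.29 in the authors' deposited table. The endothelial proteoglycan gene Esm1 stood at -2.16 ± 0.34 in the authors' deposited table, and Ctgf, the connective tissue growth factor gene also called Ccn2, at -1.91 ± 0.57. Crim1, a transmembrane protein gene of BMP handling, had the highest mean count of these 4 (703) and a log2 fold change of -1.74 ± 0.17 in the authors' deposited table. Genes of this domain group that were not listed include Ccn1, Ccn3, Htra1, Htra3 and Kazald1.

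Of 6 genes for the ternary complex, IGFBP proteases and their inhibitors, the metalloprotease gene Adamts1 alone was listed, at -2.28 ± 0.39 with a mean count of 1246 in the authors' deposited table. Igfals, Pappa, Pappa2, Stc1 and Stc2 were not listed. At the receptor level, Insr, the insulin receptor gene, had a log2 fold change of -1.15 ± 0.22 in the authors' deposited table. Grb10, an adaptor that restrains insulin and IGF1 receptors, was the one listed gene of 8 adaptors, at -2.51 ± 0.23 in the authors' deposited table, and Irs1 and Irs2 were not listed. In the PI3K-AKT-FOXO branch, 12 of 13 genes were not listed, and the exception was the regulatory subunit gene Pik3r3, at -2.88 ± 0.47 in the authors' deposited table. Ghr, the growth hormone receptor gene that drives hepatic IGF1, stood at -1.36 ± 0.33 in the authors' deposited table, and the other 4 genes of growth hormone signalling were not listed. None of the 3 IGF2 mRNA-binding protein genes was listed.

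**Figure D3:**
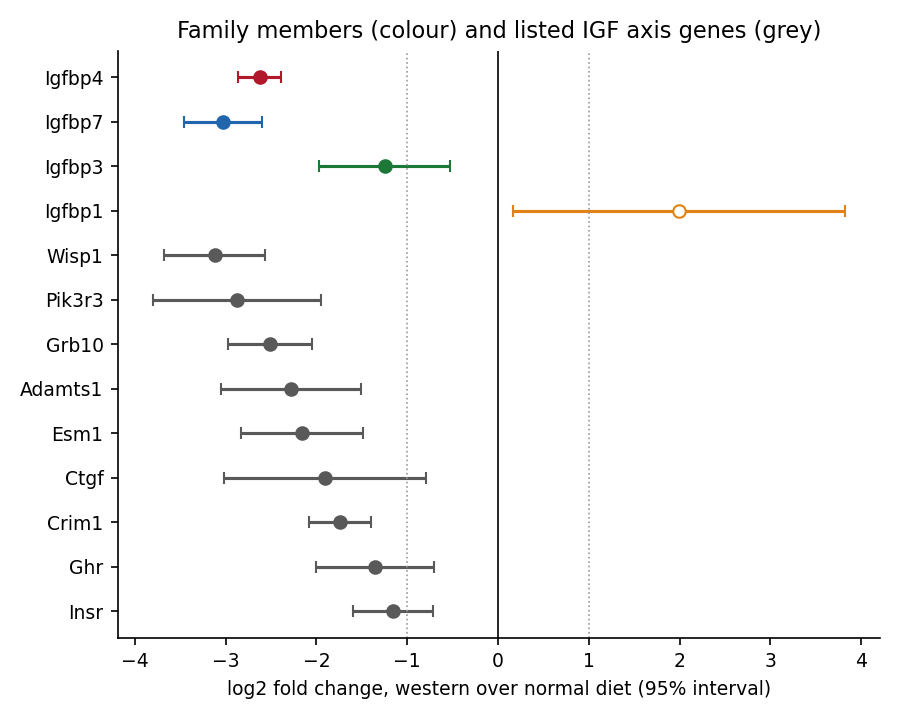
Log2 fold change (western over normal diet) with its 95% interval for the 4 members in colour and the 9 listed IGF axis genes in grey; open symbols did not pass an adjusted p of 0.05 and dotted lines mark 2-fold. All genes but Igfbp1 lie below 0, and the intervals of Igfbp1, Igfbp3, Ctgf, Ghr and Insr reach inside 2-fold.

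Markers of other liver cells moved in the same comparison. The marker lists were chosen with earlier results of these data known. Their counts are therefore not read against the 8.35% of tested genes listed and lower, or the 3.0% listed and higher. By the authors' deposited table, all 20 sinusoidal endothelial markers were lower with an adjusted p under 0.05, and their log2 fold changes ran from -3.85 to -1.49 with a median of -3.09. Their summed implied mean counts were 92792 in ND and 12963 in WD. The most abundant were Ptprb, a vascular phosphatase gene (-3.21 ± 0.42), and the scavenger receptor gene Stab2 (-2.71 ± 0.26), by the authors' deposited table. Of the 20 markers, 15 had fallen further than Igfbp4 and 11 further than Igfbp7, whereas all 20 had fallen further than Igfbp3. These counts hold for this list only. Endothelial genes outside it spread wider in the authors' deposited table, for example Cldn5 (-4.12 ± 0.20), Mrc1 (-1.12 ± 0.15) and Procr (1.16 ± 0.42). Mrc1 and Procr are not confined to endothelium. The 95% intervals of 13 markers overlapped that of Igfbp4, those of 17 overlapped that of Igfbp7 and those of 4 overlapped that of Igfbp3. None of the 20 had a smaller SE than Igfbp4 in the authors' deposited table. The part of endothelial RNA in the members' fold changes was not tested, and in such a preparation fewer cells of a type and less RNA per cell cannot be told apart.

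Of 15 stellate cell and fibroblast markers, 10 were lower and none higher in the authors' deposited table, with log2 fold changes from -2.37 to -1.18. The summed implied mean counts of the 10 were 5261 in ND and 1456 in WD. The most abundant were the proteoglycan genes Bgn (-2.01 ± 0.22) and Dcn (-1.59 ± 0.56), by the authors' deposited table. The fold change of Igfbp3 lay within this range. Hepatocyte markers, relevant to Igfbp1, had 3 of 12 higher and none lower in the authors' deposited table, and the summed implied mean counts of the 3 were 691 in ND and 1687 in WD. Ass1, which is not confined to hepatocytes, supplied 615 and 1402 of these sums, so the sums rest on that gene. The most abundant of the 3 were the urea cycle gene Ass1 (1.19 ± 0.16) and the apolipoprotein gene Apob (1.71 ± 0.62), by the authors' deposited table. The other 9 markers, Alb, Apoa1 and Ttr among them, were not listed. These counts hold for this list only. Genes outside it that hepatocytes express went both ways in the authors' deposited table, for example Serpina1e (-2.13 ± 0.55), Hp (-1.52 ± 0.28) and Slco1b2 (1.35 ± 0.55). Of 10 T and NK cell markers, 8 were higher in the authors' deposited table, led in mean count by Ccl5 (1.73 ± 0.29) and Gzmb (1.51 ± 0.24). None of 12 markers of resident liver macrophages, Adgre1 and Clec4f among them, was listed, so the labelled cell type could not be checked on them. The part of these cells in the members' values was not tested.

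**Figure D4:**
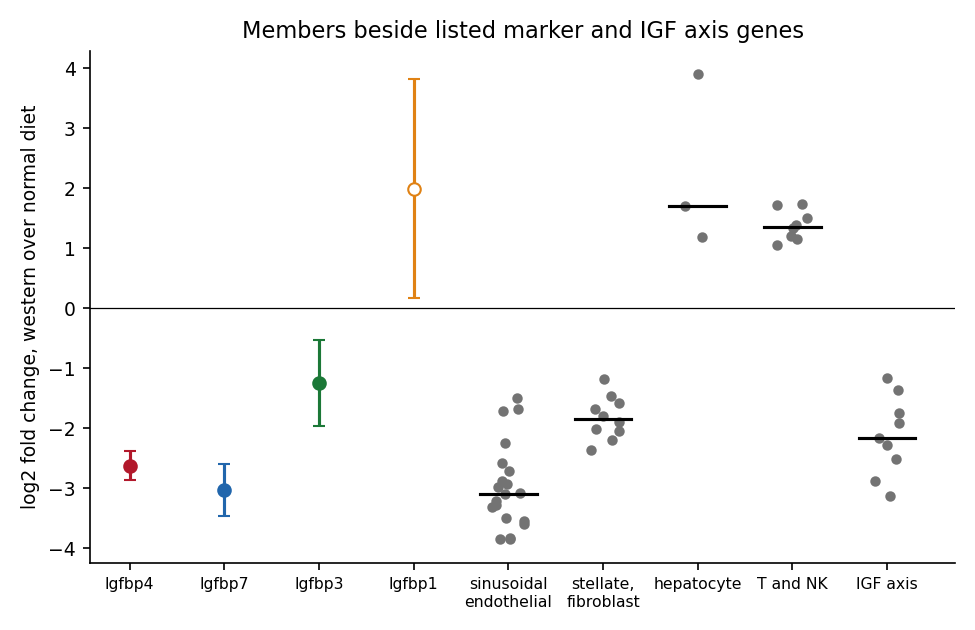
Log2 fold change (western over normal diet) of the members with 95% intervals, beside the listed genes of 4 marker lists and of the IGF axis (1 grey point per gene, with the median as a black line). Igfbp4 and Igfbp7 lie within the range of the 20 sinusoidal endothelial markers (-3.85 to -1.49), Igfbp3 above it, and Igfbp1, which did not pass, on the positive side with the listed hepatocyte and T and NK cell markers.

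**Figure D5:**
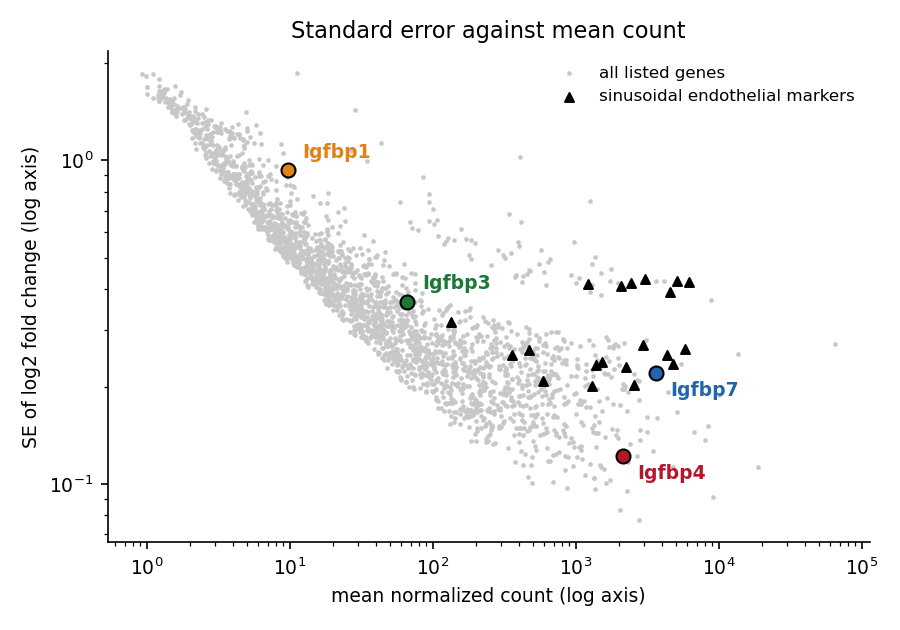
Standard error of the log2 fold change against mean normalized count, both on log axes, for all listed genes (grey), the 20 sinusoidal endothelial markers (triangles) and the members (coloured). Igfbp4, with an SE of 0.12, lies below all 20 triangles, and Igfbp1, with 0.93, lies above most listed genes of its level.

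With 1 comparison, likeness to a member can be measured only by the distance between log2 fold changes, here among protein-coding genes with a mean count within 2-fold. The 5 genes closest to Igfbp4 in the authors' deposited table were Sparc (-2.58 ± 0.20), Cd55 (-2.68 ± 0.25), F8 (-2.56 ± 0.42), Plpp3 (-2.51 ± 0.21) and Hspg2 (-2.75 ± 0.27). They encode the matrix protein SPARC, a complement regulator, coagulation factor VIII, a lipid phosphatase and the basement membrane proteoglycan perlecan. The SE of each was larger than the 0.12 of Igfbp4. Those closest to Igfbp7 in the authors' deposited table were Ltbp4 (-3.08 ± 0.22), which encodes a TGF-beta binding protein of the matrix, Gpihbp1 (-3.10 ± 0.25), the capillary anchor of lipoprotein lipase, and Bmp2 (-3.10 ± 0.23). Socs1, Pcdh7 and Rtl8a were closest to Igfbp3, their log2 fold changes being -1.25 to -1.24 in the authors' deposited table.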

How the data were processed

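RNA of liver macrophages was sequenced in 8 libraries, grouped by their diet label (ND, 4; WD, 4). Per the labels' protocols, polyadenylated RNA was enriched, fragmented and copied with random primers. The submitters' processing notes give no roles or versions but name mm10 as the build and, as tools, the aligners HISAT2 and STAR, the counter featureCounts, and StringTie, STAR-Fusion, DESeq and edgeR. The authors deposited 1 table, whose headers carry the names DESeq2 gives its results: a mean normalized count (signal), a log2 fold change with its SE on the log2 scale, a test score and a p-value with its adjusted p-value. Every test used here is the authors' own, and a gene was called at a deposited adjusted p-value below 0.05.

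From the table were computed 95% intervals (1.96 SE), implied group means and the number of genes that received an adjusted p-value. That number, 17531, is the whole number that makes most ranks implied by the adjusted p-values whole within 0.02. This step was tested on simulated data. An implied mean assumes 4 libraries per group and an unshrunken fold change. The deposited score equalled the fold change over its SE to within 7.1e-08. That equality can also hold for a shrunken fold change with its own SE, so the assumption could not be checked. An implied mean is approximate. Where reads of overlapping genes went cannot be told, since strandedness is not given in the sources used here. All 2386 gene identifiers matched GENCODE M21 (GRCm38, the mm10 assembly), which gave positions and exon lengths; promoters came from RefSeq. Nothing says that libraries came from separate animals beyond the design's number of mice per diet, so p-values measure the spread between these libraries.

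The members and gene lists were chosen with earlier results of these data known. Named genes were all members, all listed genes of the IGF axis lists, the 2 most abundant listed genes of each marker list, the 3 genes most like each called member (5 for Igfbp4) and listed genes within 500 kb of a member. Cldn5, Mrc1, Procr, Serpina1e, Hp, Slco1b2 and Igf1os were named outside this rule, after their values were seen. Other limits for calls were tried as alternatives. Python 3.11.15 with pandas 2.3.3 and numpy 2.4.6 was used.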

Additional observations from a re-analysis of the deposited data

How the results depend on the processing

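Under the 5 other limits tried, the number of members called ranged from 2 to 4 and that of IGF axis genes from 6 to 9, beside 3 and 9 as reported. Each stayed within 1.5 times. Listing already required a p-value below 0.05, so the unadjusted limit had to call every listed gene. Genes not listed could not enter under any limit, so these ranges do not show how the counts hold at looser limits. Igfbp4 and Igfbp7 passed under all 5. Igfbp3 did not pass under Bonferroni adjustment or when its 95% interval had to lie wholly beyond 2-fold, and Igfbp1 passed only at an unadjusted p below 0.05. Ctgf and Ghr also failed under both of the limits that Igfbp3 missed, and Insr under the interval limit. An adjusted p below 0.01 and a mean count of at least 10 changed no call. No paired analysis was possible because the table has no value per library, and for the same reason no library could be left out and no other normalization or count model fitted. The depth of single libraries is unknown, so what depth limits could not be assessed.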

Other observations

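Within 500 kb of Igfbp4 lie 37 other protein-coding genes of GENCODE M21, of which 2 were listed, both with a fold change opposite to that of Igfbp4. Ccr7, the chemokine receptor gene of migrating dendritic cells, lies 89.8 kb away (chromosome 11, 99144196 to 99155077) and rose in the authors' deposited table by 1.80 ± 0.27 on the log2 scale (adjusted p 5.03e-10). Ikzf3, a lymphocyte transcription factor gene (chromosome 11, 98464902 to 98546031), also rose in the authors' deposited table (1.34 ± 0.29). None of 12 protein-coding genes within 500 kb of Igfbp7 was listed. Within the same distance of Igfbp3 and Igfbp1 the one listed gene was, for each, the other of the pair. Over all tested genes, 11.4% were listed with an adjusted p under 0.05. The neighbours counted are annotated genes, tested or not, and nothing particular to these regions is drawn from the counts.

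Igf1 was not listed, but Igf1os, an antisense gene that overlaps its first part by 5117 bases (chromosome 10, 87826377 to 87863381, minus strand), was. It fell outside the rule for members and was chosen after its values were seen. In the authors' deposited table its mean normalized count was 16.2 and its log2 fold change -1.002 ± 0.400 (adjusted p 0.0435), next to the authors' limit on size. Whether strand was used in counting is not given in the sources used here, and without strand the reads of Igf1 and Igf1os cannot be told apart.

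Of the 373 Gene Ontology terms that the authors deposited for genes with a positive fold change, 2 held Igfbp1. These were aging (11 genes, Benjamini p 0.00398 in the authors' deposited table) and tissue regeneration (3 genes, Benjamini p 0.313 in the authors' deposited table). None of the 78 deposited KEGG terms held it. Igfbp1 entered these terms although its own adjusted p was 0.0946 in the authors' deposited table.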
